A study of Mus musculus with 2 samples.

Results

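The clustered protocadherins are cell adhesion genes that lie side by side on mouse chromosome 18 in the clusters Pcdha, Pcdhb and Pcdhg. They were taken here as every gene whose symbol starts with Pcdha, Pcdhb or Pcdhg in the GENCODE annotation of mm9, which gave 25 of 37310 annotated genes. This annotation holds 2 Pcdha genes, 22 Pcdhb genes and 1 Pcdhg gene. It writes the alternative isoforms of the Pcdha and Pcdhg clusters as transcripts of the genes Pcdha11, Pcdha3 and Pcdhgc5, so the unit described is the variable exon, the first exon with which an isoform starts. There were 41 variable exons, 10 in Pcdha, 22 in Pcdhb and 9 in Pcdhg, and they are called by the name of their transcript (Pcdha11-202) or, for an intronless gene, of the gene (Pcdhb8). Isoforms that this annotation does not list were not used here.

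In neurons, each cell uses a small set of these isoforms, picked by promoter choice, and the proteins pair on the surface of neighbouring cells so that a neuron tells its own branches from those of others. In the Pcdha and Pcdhg clusters a variable exon encodes the extracellular cadherin repeats, the membrane span and the start of the tail, and it is spliced to constant exons shared by the cluster. A Pcdhb gene encodes its whole protein in 1 exon. The promoters are known to be bound by CTCF, a zinc finger protein that shapes chromatin loops together with cohesin, and to be silenced by DNA methylation where they are not used.

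Open chromatin was mapped with ATAC-seq, an assay that lets a transposase cut accessible DNA, in enteroids, which are epithelial cultures grown from crypts of the mouse ileum. The control enteroids were Taf4 lox/lox and carried no Cre, while the Taf4-inactivated enteroids were Taf4 lox/lox::VilCreER T2, in which a tamoxifen-dependent Cre is driven by the villin promoter of the intestinal epithelium. Both came from 4-month-old mice of the C57Bl6/129sv strain and received 1 µM 4-hydroxytamoxifen (4-OHT) for 3 days, so the agent is shared and only the second genotype can lose Taf4, which is part of TFIID, the complex that assembles on core promoters. Each genotype had 1 library, without a replicate. Every difference below therefore describes these 2 libraries, no p-value was computed, and genotype, culture and library cannot be told apart.

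The authors called peaks in each library on its own, 90445 in control and 71282 after Taf4 inactivation. The fold of a peak is its enrichment over the background of its own library, so peaks were compared between lists by presence and by percentile, the rank of the fold within the list from 0 to 100. The background level solved from the fold and p of narrow peaks was 12.1 reads in control and 7.35 in the Taf4-inactivated library, whose depth was thus 60.5% of that of control. Cell type markers were counted per gene, with a peak at any annotated first exon. Start site peaks were present in both lists at 6 of 6 epithelial markers, 6 of 6 neuronal, 2 of 4 mesenchymal and 1 of 3 endothelial markers. They were present at 0 of 4 immune markers. No share over all genes, counted this way, stands beside these counts. Presence of a peak at a start site thus did not separate epithelial from neuronal markers in these lists.

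The Pcdha cluster spanned chromosome 18 from 37089939 to 37347311 in mm9, the Pcdhb cluster from 37424652 to 37681073 and the Pcdhg cluster from 37833989 to 38001527, all on the plus strand. Together with 50 kb on each side they held 53 peaks in control and 25 after Taf4 inactivation, 2.12 times as many in control. Over all chromosomes the control list was 1.27 times as long as the other, and over chromosome 18 it was 1.28 times as long. The control density over the clusters and flanks was 55.3 peaks per Mb, against 31.9 on chromosome 18 and 35.4 over all chromosomes. The Taf4-inactivated density was 26.1 per Mb, against 25.0 on chromosome 18 and 27.9 over all chromosomes. The clusters thus held more than the average density of peaks in the control list and about the average in the other.

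**Figure D1:**
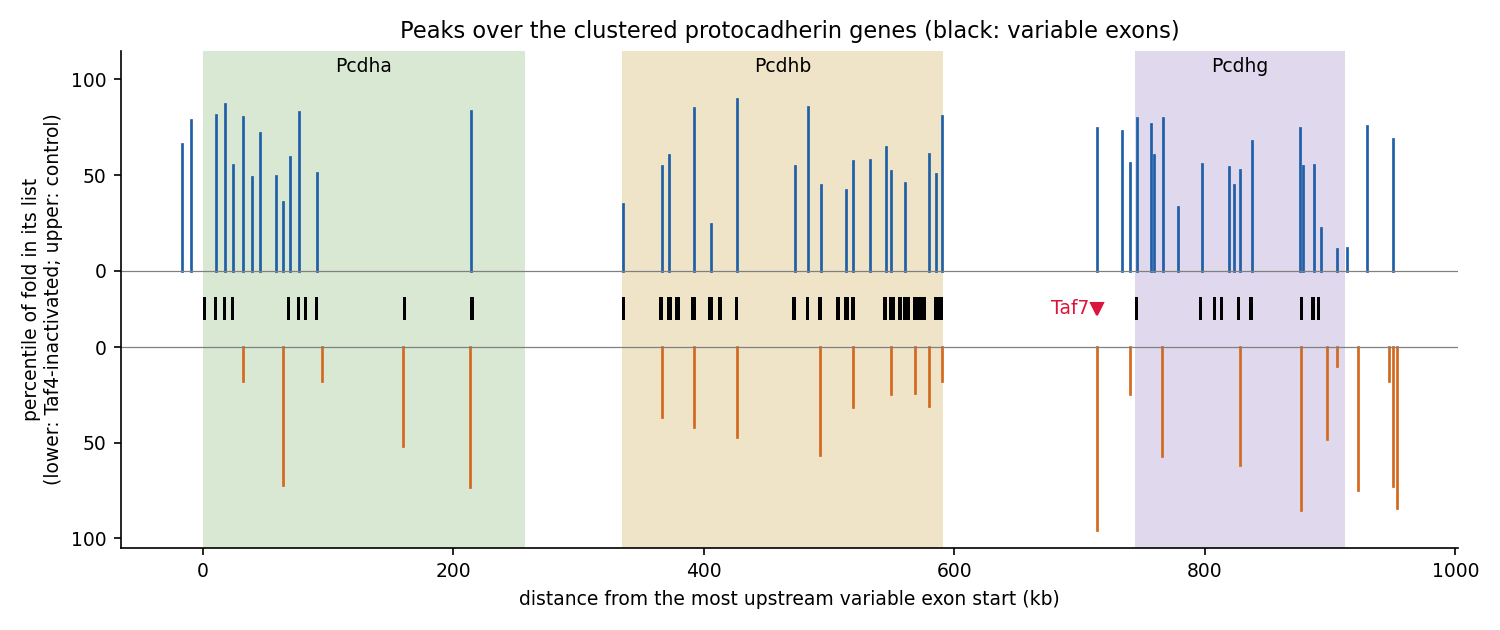
Peaks of both lists over the 3 clusters and flanks, as vertical lines at the distance in kb from the most upstream variable exon start, with height the percentile of fold within the list (control upward, Taf4-inactivated downward), black blocks for the 41 variable exons and a triangle for the start of Taf7. Of the 53 control peaks, 26 lie inside a variable exon, while the 25 Taf4-inactivated peaks are sparser and reach their highest percentile, 95.9, at Taf7.

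The excess of control peaks was present in each cluster. The Pcdha cluster held 12 control and 5 Taf4-inactivated peaks, the Pcdhb cluster 18 and 9, and the Pcdhg cluster 15 and 5. Of the 53 control peaks, 17 overlapped a peak of the other list by at least 1 bp (32.1%, exact 95% confidence interval 19.9 to 46.3%, which covers counting error only), against 47.3% of all control peaks. Of the 25 Taf4-inactivated peaks, 17 had a partner (68.0%, 46.5 to 85.1%), against 60.2% of that whole list. The peaks were near the middle of their lists, with a median percentile of 57.9 in control and 47.2 after Taf4 inactivation. The highest −log10 q was 4.25 among the control peaks and 12.7, at Taf7, among the Taf4-inactivated ones. The order turned among peaks whose −log10 q was 5 or more, of which there were 0 in control and 4 after Taf4 inactivation. Over all chromosomes 11.9% of the control list and 28.7% of the other list reached the same limit.

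Start sites of the variable exons rarely carried a peak in these epithelial cultures. Within 1 kb of the annotated start, a peak was present at 4 of 41 variable exons in control and at 3 of 41 in Taf4-inactivated enteroids, where 50% and 45.6% of the 42005 distinct first exons of protein-coding genes had one. It was present in both lists at 2 variable exons (background 41.6%), in control alone at 2 (8.36%) and in the Taf4-inactivated list alone at 1 (3.99%). Among peaks whose −log10 q was 2 or more the counts were 2 in control and 3 after Taf4 inactivation, with 0 in control alone. The order of the lists thus turned on small counts. Over all protein-coding first exons the shares at this limit were 40.15% and 39.8%, so the gap between the lists was small there too. At 36 of 41 variable exons neither list had a start site peak, against 46.0% of the protein-coding first exons outside the family. The annotation starts all 10 Pcdha exons, and 3 of the 21 coding Pcdhb exons, at the start codon itself, so the distance to the true start of their transcripts is not known here.

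Pcdha11-202, the most downstream variable exon of the Pcdha cluster (37303623 to 37306184), had the strongest start site peak of the family in control. It spanned 37303103 to 37304529 in control, with a fold of 2.37 at percentile 83.5, and 37302779 to 37304101 after Taf4 inactivation, with a fold of 2.91 at percentile 73.2. Its −log10 q was 4.03 and 5.13. The peak was thus present in both libraries, with a rank difference, Taf4-inactivated minus control, of −10.3 points.

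Pcdhgc5-208 (37966064 to 37968631), one of the last 3 variable exons of the Pcdhg cluster, was the other exon whose start had a peak in both lists. In control this peak covered 37965811 to 37966504, with a fold of 2.22 at percentile 74.4 and a −log10 q of 2.47. In the Taf4-inactivated list it covered 37965803 to 37966804, with a fold of 3.40 at percentile 85.4 and a −log10 q of 8.10. The rank difference was 11.0 points. Over all 42770 control peaks that overlapped a peak of the other list, the median rank difference was −2.88 points, with quartiles of −16.2 and 7.65. By peak width the difference at Pcdha11-202 changed sign, to 0.78 points.

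Pcdha11-201 (37249790 to 37252225), the variable exon just upstream of Pcdha11-202, had a start site peak in Taf4-inactivated enteroids alone. It spanned 37249189 to 37250510, with a fold of 2.47 at percentile 51.9 and a −log10 q of 2.27. Pcdhb1, the first gene of its cluster, and Pcdhb3 had one in control alone. The Pcdhb1 peak, at percentile 34.8 with a −log10 q of 1.41, lay 398 bp past the start. The Pcdhb3 peak only reached into the 1 kb window with its edge, since its midpoint lay 1614 bp past the start.

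Exons with a start site peak in the Taf4-inactivated list, Pcdha11-202, Pcdha11-201 and Pcdhgc5-208, had the 3 most GC-rich start windows of the family. From 250 bases before to 50 after the start, the GC content was 72.4%, 65.5% and 62.8%. The median over the 41 windows was 41.2%, and over all protein-coding first exons it was 51.8%. The ratio of observed to expected CpG, low where CpG has been lost by methylation over evolution, had a median of 0.507 over the 41 windows and 0.331 over all. Over 1 kb on each side of the start, the share of 40 base words found once in the genome had a median of 97.9% and was nowhere below 82.9%. A degenerate form of the CTCF core motif, searched on both strands, was in 0 of 41 start windows and in 0.776% of all such windows. This says only that these letters are not in these windows, which for all 10 Pcdha exons are placed by the start codon. Within the variable exons a match was found in 16 of 41. These were 3 of 10 in Pcdha, 13 of 22 in Pcdhb and 0 of 9 in Pcdhg. No share over other exons stands beside this count.

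Inside the variable exons, well past their starts, lay 26 of the 53 control peaks and 9 of the 25 Taf4-inactivated peaks of the clusters and flanks. An inner peak, one that touched the exon beyond 1 kb from its start and was no start site peak, was present in 26 of 41 variable exons in control and in 9 of 41 after Taf4 inactivation. Among the 707 first exons of at least 2 kb of protein-coding genes, 12.7% had an inner peak in control and 10.2% after Taf4 inactivation. The inner peak was in both lists in 8 variable exons (background 5.23%), in control alone in 18 (7.50%) and in the Taf4-inactivated list alone in 1, Pcdhb19 (4.95%). With the protocadherins left out of that background, 9.73% of 668 exons had an inner peak in control and 9.58% after Taf4 inactivation. Among these 668 exons 35 had an inner peak in control alone and 34 in the Taf4-inactivated list alone, where the variable exons had 18 and 1. Inner peaks were thus more frequent than the background in both lists, and in the variable exons the exons with a peak in 1 list alone were nearly all on the control side.

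The gap between the lists was seen in all 3 clusters. In Pcdha, inner peaks were present in 6 of 10 exons in control and in 0 of 10 after Taf4 inactivation. In Pcdhb they were present in 14 and 8 of 22, and in Pcdhg in 6 and 1 of 9. Pcdhgc5-208 was the only exon with a peak at its start and an inner peak, in control. Neither list had a peak of either kind in 10 of 41 variable exons (24.4%), against 38.6% of the 668 other first exons of at least 2 kb. These 10 were Pcdha11-204, Pcdha11-205, Pcdhb4, Pcdhb7, Pcdhb12, Pcdhb17, Pcdhb20, Pcdhgc5-210, Pcdhgc5-201 and Pcdhgc5-203. Pcdhb20 is annotated as a pseudogene.

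**Figure D2:**
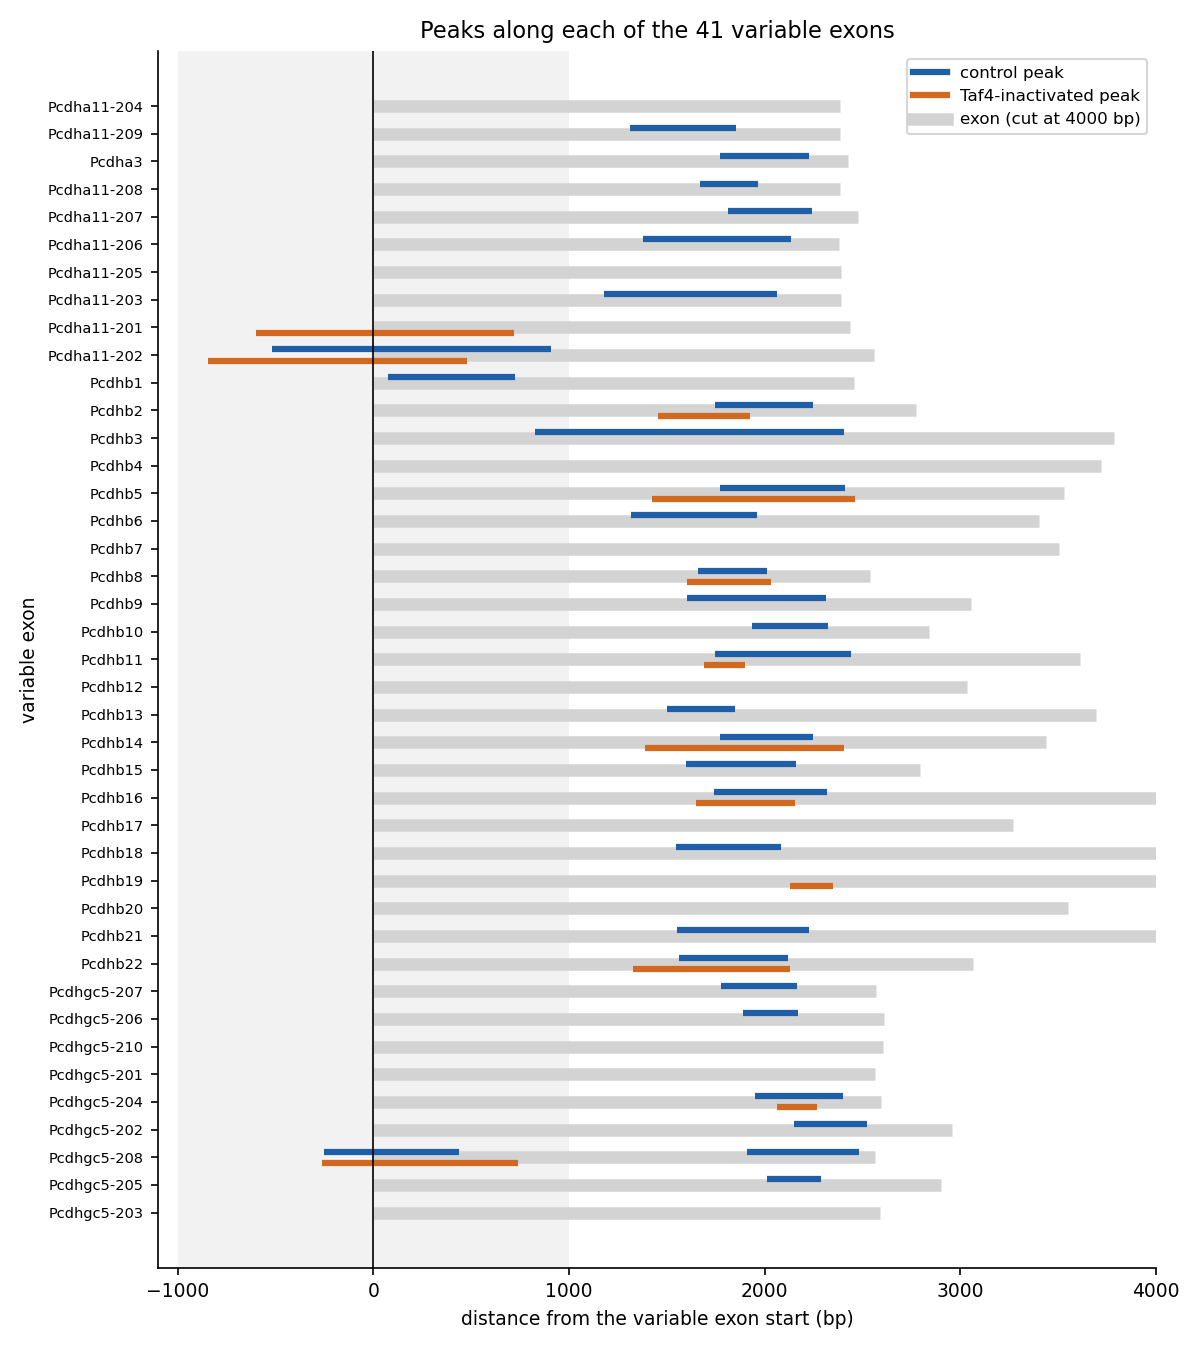
Peaks of the control (blue) and Taf4-inactivated (orange) lists along each of the 41 variable exons (grey, in genomic order), by distance in bp from the exon start, with the 1 kb start window shaded. Inner peaks stack about 2 kb past the start, in 26 exons in control and 9 after Taf4 inactivation, while few peaks cross the start itself.

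The distance from the start was similar across exons of different length. In control the midpoints of the 26 inner peaks lay 1581 to 2337 bp past the start, with a median of 1983 bp. The 14 Pcdhb exons among them, each taken to the end of its gene, spanned 2539 to 5268 bp. In the Taf4-inactivated list the 9 midpoints lay 1692 to 2240 bp past it, with a median of 1897 bp. Counted from the start codon, the control midpoints lay at 66.2 to 84.7% of the coding part of the exon, with cluster medians from 74.4% in Pcdhb to 75.5% in Pcdhg. The definition alone places an inner peak beyond the first 1 kb, but it does not fix the position within the rest. In Pcdha and Pcdhg the exon codes up to its end, so a midpoint there is in coding sequence by definition. In Pcdhb, where most exons also hold untranslated sequence, all 14 control and all 8 Taf4-inactivated midpoints lay in the coding part.

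Pcdhb8, an intronless gene, had the strongest inner peak of the family in control, at 37516385 to 37516739 with a fold of 2.56, percentile 89.8 and a −log10 q of 4.25. In the Taf4-inactivated list the peak spanned 37516331 to 37516757, with a fold of 2.41 at percentile 47.2. Pcdha3 followed in control with a fold of 2.47 at percentile 87.3, and it had no peak in the other list. Pcdhb10 had a fold of 2.42 at percentile 85.6 in control alone. Pcdhb5 had a fold of 2.40 at percentile 85.1 in control and 2.36 at percentile 41.9 after Taf4 inactivation. Pcdha11-206, at percentile 82.8, was in control alone. Of these 5 exons, chosen for the highest inner folds in control, 2 thus had a peak in the other list as well.

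In the 8 exons with an inner peak in both lists, the percentile in the Taf4-inactivated list minus that in control ran from −63.3 to 11.5, with a median of −27.0. Over all overlapping pairs it was below 0 in 59.5%. In the variable exons it was lower in 6 exons, Pcdhb2, Pcdhb5, Pcdhb8, Pcdhb14, Pcdhb16 and Pcdhb22. It was higher in Pcdhb11, which ranked at 45.0 in control and 56.5 after Taf4 inactivation, and in Pcdhgc5-204, which ranked at 52.7 and 61.6. The largest difference was at Pcdhb22, the last gene of its cluster, which ranked at 80.8 in control and at 17.5 after Taf4 inactivation. The direction depended on the ranking value, since by peak width 7 of these 8 differences changed sign.

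**Figure D3:**
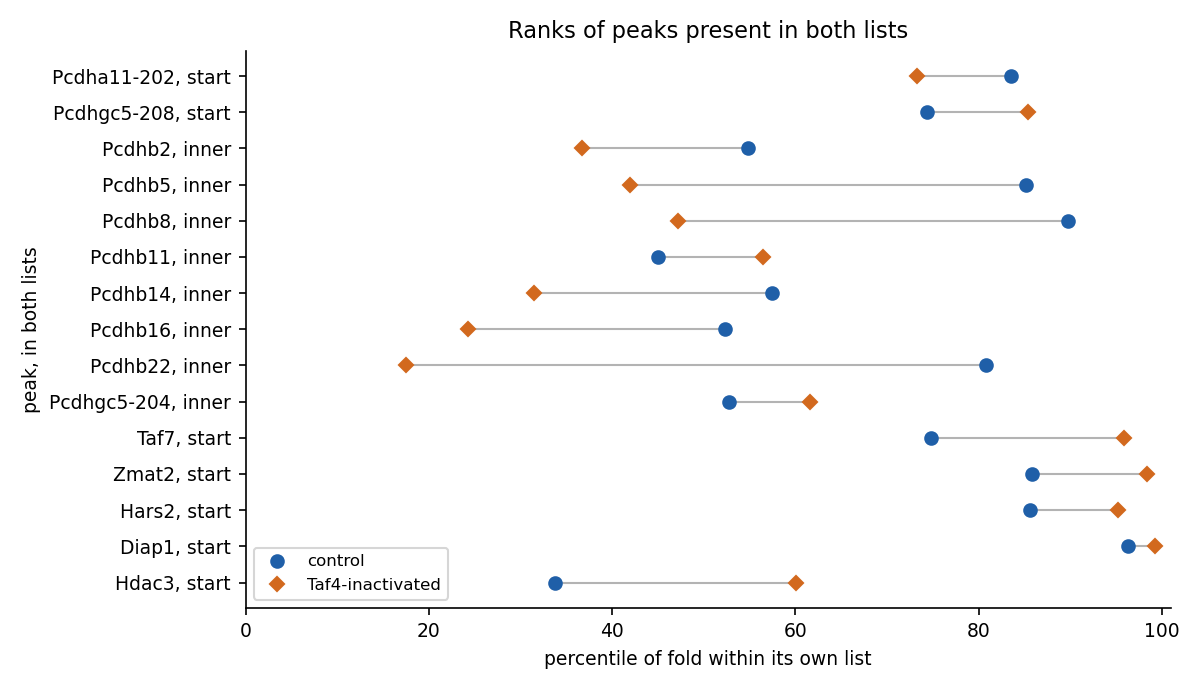
Percentile of fold within its own list for peaks present in both lists, with circles for control and diamonds for Taf4-inactivated enteroids, for 2 variable exon start sites, 8 inner exon peaks and 5 genes inside or beside the clusters. The inner peaks of 6 Pcdhb genes rank lower in the Taf4-inactivated list, while Taf7 and the 4 neighbouring genes rank higher there.

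Inner peaks rested on a low pileup, which is not the number of reads in a peak. The pileup counts read ends, each widened by the peak caller to a window of fixed length, that cover a base. Its values here are approximate, since the fold and p they were solved from are values for a whole peak. In control, the pileup solved from fold and p was 24.1 to 33.3 over backgrounds of 12.1 to 15.3. In Taf4-inactivated enteroids it was 17.0 to 21.1 over backgrounds of 7.32 to 7.41. If the control inner peaks kept their fold at the depth of the Taf4-inactivated library, 10 of the 18 without a partner and 5 of the 8 with one would fall below the lowest −log10 p of that list, 2.87. The part of depth in the missing peaks was not tested further. At a −log10 q of at least 2, inner peaks were left in 11 of 41 variable exons in control and in 3 of 41 after Taf4 inactivation. The shares of the other 668 long first exons were 4.94% and 5.69%.

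Peak coverage in bins of 250 bp showed the same pattern without an inner window. In control, 7.32% of the variable exons had a peak in the first bin past the start, and 61.0% had one from 1750 to 1999 bp. The 668 other long first exons showed the reverse order, with 40.9% in the first bin and 14.7% from 1750 to 1999 bp. After Taf4 inactivation the variable exons had 7.32% and 17.1%, and the other exons 35.9% and 10.8%, in the same bins. The variable exons thus had few peaks at their starts in both libraries, and in control most of their peaks lay where other long first exons had few.

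**Figure D4:**
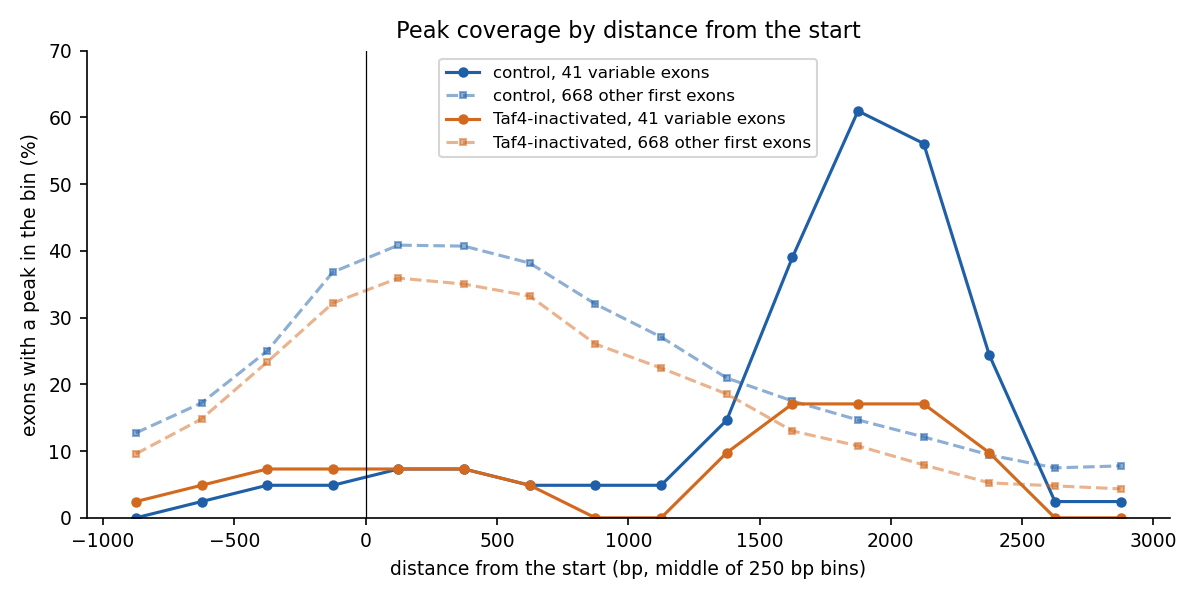
Share of exons (%) with a peak in each 250 bp bin, by distance from the start in bp, for the 41 variable exons (solid lines) and 668 other first exons of at least 2 kb (dashed lines), in control (blue) and Taf4-inactivated (orange) enteroids. The variable exons peak at 61.0% in control between 1750 and 1999 bp and stay at or below 17.1% in the Taf4-inactivated list, while the other exons are highest just past the start.

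Base composition moved along with this position. The mean GC content of the variable exons was 59.3% from 1750 to 1999 bp, where that of the other long first exons was 47.5%, and it was 36.5% from −500 to −251 bp, before the start. Peaks over the clusters were GC-rich, with a median of 58.5% in control and 58.3% after Taf4 inactivation, against 53.5% and 52.6% over all peaks. The inner part of an exon, from 1 kb past the start to its end, was compared as a whole. Its median GC was 50% in exons with an inner control peak and 49.0% in the 15 exons without one. This average cannot tell whether composition differs where peaks lie, since the inner control peaks themselves had a median of 59.6%. Reads were kept only where they mapped once, and the share of 40 base words found once in the genome was lowest, 82.6%, from 1500 to 1749 bp. The part of base composition and of sequence shared between the exons in the inner peaks was not tested.

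**Figure D5:**
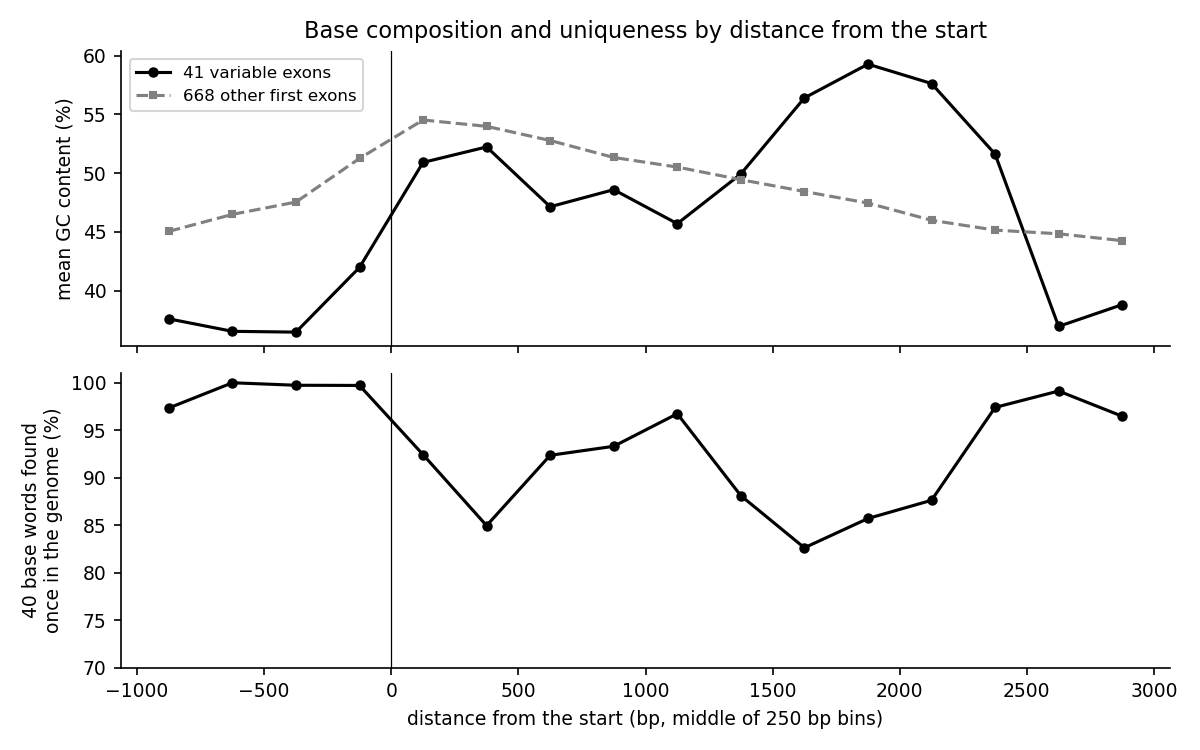
Mean GC content (%) of the 41 variable exons (solid) and 668 other first exons of at least 2 kb (dashed), and below it the share (%) of 40 base words of the variable exons that occur once in the genome, in 250 bp bins by distance from the start in bp. GC content reaches 59.3% in the bin where control peaks are most frequent, and unique words are fewest, 82.6%, one bin earlier.

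Other peaks of the clusters and flanks lay outside annotated exon starts and annotated variable exons. There were 21 such peaks in control and 11 after Taf4 inactivation, 6 of each shared. In the 42.7 kb after Pcdha11-208, which hold no annotated variable exon, there were 5 control and 2 Taf4-inactivated peaks. In the 48.8 kb after Pcdhgc5-207 there were 4 and 1. Whether these peaks lie in variable exons of isoforms that this annotation does not list was not tested. The constant exons of Pcdha and Pcdhg, which all isoforms of a cluster share, had no peak within 1 kb in either list. The strongest of these peaks in the Taf4-inactivated list lay in the flank past the Pcdhg cluster, at 38043128 to 38043574 with a fold of 3.34 and at 38039865 to 38040250 with a fold of 2.90, of which the second was shared with control. The next were a shared one at 37154170 to 37154500 in the Pcdha cluster, with a fold of 2.87, and a shared one at 37855827 to 37856243 in the Pcdhg cluster, with a fold of 2.55.

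Taf7, an intronless gene that encodes another TFIID subunit, lies between the Pcdhb and Pcdhg clusters (start at 37803858, minus strand), and its start had a peak in each list. The control peak spanned 37803638 to 37803988, with a fold of 2.23 at percentile 74.8. In the Taf4-inactivated list it spanned 37802906 to 37804166, with a fold of 4.27 at percentile 95.9, the strongest peak of the clusters and flanks there. Slc25a2, a mitochondrial carrier gene beside Taf7, had a start site peak in neither list. The neighbours upstream of the clusters, Zmat2 and Hars2, ranked at 85.8 and 85.7 in control and at 98.4 and 95.3 in the Taf4-inactivated list. Downstream, Diap1, which encodes a formin of the actin skeleton, ranked at 96.3 and 99.2, and Hdac3, a histone deacetylase gene, at 33.8 and 60.1. The 5 start sites were thus open in both libraries and ranked higher in the Taf4-inactivated one by fold, although by peak width Zmat2, Diap1 and Hdac3, and by p Hdac3, ranked lower there.

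The protocadherin genes outside the clusters were counted per gene, with a peak at any annotated first exon, so their share is not on the scale of the variable exons. Of 12 such genes, 7 had a start site peak in control, 6 in the Taf4-inactivated list and 5 in both. Pcdh17 ranked at 89.6 in control and 93.0 after Taf4 inactivation, and Pcdh19 at 85.1 and 43.1. Pcdh10 and Pcdh11x had one in control alone, and Pcdh7 in the Taf4-inactivated list alone. All 7 epithelial cadherin genes, counted the same way, had start site peaks in both lists, with Cdh1, which encodes E-cadherin, at percentiles 93.8 and 95.

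Factors known to act on the protocadherin clusters were also counted per gene, with a peak at any annotated first exon, and most had one in both lists. Of 15 such genes, 14 had a start site peak in control and 15 after Taf4 inactivation. No share over all genes, counted this way, stands beside these counts. The strongest peak of Dnmt3a began at 3849444 in control and at 3806160 after Taf4 inactivation, and that of Wiz at 32525566 and 32506133. These peaks thus did not lie at the same start in the 2 lists. Ctcf ranked at 96.3 and 90.3, and Rad21, which encodes a cohesin subunit, at 98.5 and 95.3. Smchd1, a chromatin protein that silences the clusters, ranked at 96.3 and 92.7. Setdb1, a histone H3 lysine methyltransferase gene, was the exception, with a peak at percentile 85.4 in the Taf4-inactivated list alone. These percentiles describe open starts and not the levels of the proteins.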

How the data were processed

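Peak lists from ATAC-seq of enteroids, 1 library of each genotype, were analysed. The authors mapped reads to mm9 with Bowtie 1.0.0, keeping reads with 1 place in the genome, and called broad peaks per library with MACS2 2.1.1. Duplicate handling is not given in the sources used here. The deposited score holds the −log10 q multiplied by 10 and truncated. The deposited fold is the ratio of a peak to the background of its own library. The deposited −log10 p and −log10 q are means over the peak.

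Peaks were joined to the GENCODE annotation of mm9 with Python 3.11.15, numpy 2.4.6, pandas 2.3.3, scipy 1.17.1 and numba 0.67.0, and figures were drawn with matplotlib 3.10.9. First exons of a gene within 300 bp of each other were counted once. The variable exon of a Pcdhb gene was taken to the end of the gene. First exons of the background kept their annotated end, so the inner windows of the 2 sets were not defined alike. The named genes were all variable exons with a start site peak, the genes inside and beside the clusters, the 5 peaks away from starts with the highest fold per list, and lists of related genes and cell type markers. Members and lists were chosen with earlier results of these data known. Overlaps, the solved background and pileup, depth and word counts were tested on simulated data, and ranks were not.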

Additional observations from a re-analysis of the deposited data

How the results depend on the processing

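No paired analysis was possible because each genotype had 1 library, and leaving out a replicate was not run for the same reason. The libraries differed in depth, and reads were kept only where they mapped once. The cause of each change below was not tested. Limits on q, distance, transcripts, flanks and overlap were planned, and those on inner peaks were chosen after seeing the data.

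Start site peaks at a −log10 q of at least 2 were left at 2 variable exons in control, 0 of them in control alone, which turned control minus Taf4-inactivated to −1. Over all protein-coding first exons the shares at this limit were 40.15% and 39.8%. At 5, start site peaks were left at 0 variable exons in control, 0 in both lists and 2 in the Taf4-inactivated list alone, a difference of −2. Over all protein-coding first exons the shares at 5 were 21.6% and 29.1%. Within 500 bp, 1 variable exon had a peak in control alone and the difference was 0, with background shares of 45.65% and 41.65%. Within 2 kb, which takes in inner peaks, there were 27 in control, 10 in the Taf4-inactivated list, 9 in both and 18 in control alone, a difference of 17. Over all protein-coding first exons the shares within 2 kb were 57.2% and 51.8%. With any annotated transcript start, 6 variable exons had a control peak, 4 of them in control alone, and 3 had a Taf4-inactivated one. The difference was 3, with background shares of 50.18% and 45.82%.

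Over the clusters and flanks, a −log10 q of at least 2 left 23 control and 13 Taf4-inactivated peaks (difference 10), 12.3 and 8.02 kb, and 24.0 and 13.6 peaks per Mb. Over all chromosomes 44493 control and 45638 Taf4-inactivated peaks reached this limit, so the order turned there. At 5 the clusters and flanks held 0 and 4 peaks (difference −4), 0 and 4.03 kb, and 0 and 4.17 peaks per Mb. Over all chromosomes 10755 and 20472 peaks reached 5. With 200 kb on each side there were 46 Taf4-inactivated peaks, and the peaks covered 47.0 kb in control and 29.9 kb in the other list. Shares with a partner were 18.9% in control and 40% after Taf4 inactivation, a difference of −21.1 points, when 50% of both peaks had to overlap. Among peaks with a −log10 q of 2 or more the Taf4-inactivated share was 46.2% and the difference −20.1 points, and at 5 the Taf4-inactivated share was 0%, with no control peak to count.

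Inner peaks at a −log10 q of at least 2 were left in 11 exons in control, 3 in the Taf4-inactivated list, 1 in both, 10 in control alone and 2 in the Taf4-inactivated list alone, a difference of 8, and at 5 every one of these counts and the difference was 0. Leaving out the 2 exons beside a start of another gene, requiring the midpoint inside, and using protein-coding genes alone each kept all counts within 1.5 times.

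Rank differences, Taf4-inactivated minus control, changed sign by width at Pcdha11-202 (0.78), Zmat2 (−1.63), Diap1 (−6.33) and Hdac3 (−8.03), and by −log10 p at Hdac3 (−1.55). For inner peaks they changed sign by width at Pcdhb2 (1.21), Pcdhb5 (28.2), Pcdhb8 (11.7), Pcdhb11 (−53.2), Pcdhb14 (39.7), Pcdhb22 (21.0) and Pcdhgc5-204 (−35.3).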

Other observations

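In the Taf4-inactivated list 4 peaks of the clusters and flanks, among them the inner peak of Pcdhb22, had the same fold of 2.16 and the same −log10 p of 3.22. These values correspond to a pileup of 17.0 over a background of 7.32. The inner control peaks of Pcdha11-203 and Pcdhgc5-202 also lay within 1 kb of the start of the antisense genes Gm10545 and Gm16882, and neither had a peak in the Taf4-inactivated list.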
